A study of Mus musculus with 12 samples.

Results

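The genes described here supply the thymidine nucleotides and the other deoxynucleotides (dNTPs) from which DNA is built. They were chosen by name, with earlier results of these data known, as Ensembl identifiers of the count table matched to mouse symbols, and are 9 of the 47069 genes in the table. All 9 passed the filter on low counts. *Tyms*, *Shmt1*, *Tk1*, *Dtymk* and *Dut* belong to the making of thymidylate, and *Dck*, *Rrm1*, *Rrm2* and *Rrm2b* to the supply of deoxynucleotides more broadly. They were measured in cells of liver cancer organoids from C57BL/6 *Lgr5–DTR–GFP* mice with tumors induced by diethylnitrosamine. All 4 groups carry this allele, which puts GFP together with the receptor for diphtheria toxin under the control of *Lgr5*. LGR5+ and LGR5- cells were sorted on GFP from organoids left untreated or given 5-FU (5-fluorouracil), so that each of the 4 groups had 3 libraries. The study's methods give a concentration and a schedule of 5-FU for organoid cultures in general and age ranges for its mice as a whole, without tying them to these libraries. Whether libraries of a group came from separate mice is not given in the sources used here, so *P* values measure only the spread between these libraries.

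Each library held 13750591 to 19323514 counted reads, so that 3 reads, the limit that a count of 0 allows, came to 0.165 to 0.22 CPM (a gene's reads scaled to the library total, here after TMM scaling for library composition). Mitochondrial genes took 1.47% to 3.08% of the reads except in LGR5- replicate 3, with 6.93% in untreated and 6.44% in 5-FU-treated cells. *Lgr5* mRNA itself did not separate the sorted populations: it lay at 23.0 to 36.0 CPM in untreated LGR5-, 23.3 to 27.5 CPM in untreated LGR5+, 18.3 to 35.9 CPM in 5-FU-treated LGR5- and 26.8 to 27.2 CPM in 5-FU-treated LGR5+ libraries. Of 10 hepatocyte markers, 9 stayed at or below 1.85 CPM (*Alb*), among them *Hnf4a* with at most 0.117 CPM and *Serpina1a* and *Fgb* with no read, and *Afp* rose from 9.88 to 21.1 CPM in untreated to 25.6 to 54.3 CPM in treated libraries. Of 7 cholangiocyte markers, *Krt19* (374 to 564 CPM in untreated and 1290 to 4480 CPM in treated libraries) and *Krt7* (564 to 767 and 1270 to 5680 CPM) rose in both populations. *Epcam* lay at 674 to 1480 CPM and *Sox9* at 158 to 355 CPM, while *Spp1* was as low as 1.83 CPM and *Cftr* at most 0.506 CPM. Of 7 leukocyte markers, 6 stayed at or below 2.02 CPM (*Ptprc*), with no read of *Cd3e*, and *Cd68* rose from 5.94 to 13.0 CPM to 16.6 to 52.4 CPM. Of 9 lung epithelial genes, *Nkx2-1*, *Abca3* and *Lamp3* lay at 43.3, 25.5 and 12.9 CPM or more. *Sftpd* rose from 37.2 to 73.3 CPM in untreated to 282 to 465 CPM in treated libraries. *Sftpc* lay at 15670 to 17330 CPM in untreated LGR5- replicates 1 and 2 and untreated LGR5+ replicate 1. In the other untreated libraries it lay at 3440 to 5764 CPM, and in treated ones at 2620 to 6040 CPM. The others went as low as 9.56 (*Sftpb*), 3.23 (*Napsa*), 3.11 (*Slc34a2*) and 1.11 CPM (*Sftpa1*). *Sftpa1* lay at 13.7 to 35.6 CPM in treated libraries, above all untreated ones. The untreated libraries high in *Sftpc* also held the highest untreated levels of *Tyms*, *Shmt1*, *Dtymk*, *Dut* and *Rrm2*. *Tk1*, *Dck*, *Rrm1* and *Rrm2b* were not split this way. The part of this split in the levels of the 9 genes was not tested. The part of the markers that moved with 5-FU in the responses below was not tested.

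Thymidylate synthase, the product of *Tyms*, adds a methyl group to dUMP to give dTMP, taking the carbon from a folate that serine hydroxymethyltransferases such as SHMT1 help to load. Thymidine kinase 1 (*Tk1*) makes dTMP from thymidine instead, thymidylate kinase (*Dtymk*) carries dTMP on to dTDP, and dUTPase (*Dut*) removes dUTP and so yields dUMP. Ribonucleotide reductase turns ribonucleotides into deoxyribonucleotides with a large subunit (*Rrm1*) and a small subunit that is either RRM2, which is tied to S phase, or RRM2B, which is known as a p53 target and supplies cells outside S phase. A metabolite of 5-FU binds thymidylate synthase and blocks it.

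The bases before the start of *Tyms*, which encodes the enzyme that 5-FU blocks, and of *Rrm1* and *Rrm2*, whose products form 1 enzyme and whose levels ran together, are shown from RefSeq (GRCm38.p6), up to the first annotated transcript base. They are written 5′ to 3′ on the strand of the gene, with CCAAT, the box that the factor NF-Y binds, in capitals. The *Tyms* stretch is chr5:30073646-30073875 on the minus strand, that of *Rrm1* chr7:102441445-102441694 on the plus strand and that of *Rrm2* chr12:24708004-24708240 on the plus strand.
Tyms: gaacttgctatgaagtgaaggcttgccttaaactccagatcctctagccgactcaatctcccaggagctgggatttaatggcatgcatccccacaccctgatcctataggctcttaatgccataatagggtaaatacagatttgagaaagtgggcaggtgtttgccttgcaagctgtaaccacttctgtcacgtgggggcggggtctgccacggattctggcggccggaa
Rrm1: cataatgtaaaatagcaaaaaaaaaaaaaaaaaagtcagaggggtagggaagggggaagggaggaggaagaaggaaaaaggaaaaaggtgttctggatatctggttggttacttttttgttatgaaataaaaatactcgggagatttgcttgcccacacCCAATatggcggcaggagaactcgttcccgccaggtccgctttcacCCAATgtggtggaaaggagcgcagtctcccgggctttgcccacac
Rrm2: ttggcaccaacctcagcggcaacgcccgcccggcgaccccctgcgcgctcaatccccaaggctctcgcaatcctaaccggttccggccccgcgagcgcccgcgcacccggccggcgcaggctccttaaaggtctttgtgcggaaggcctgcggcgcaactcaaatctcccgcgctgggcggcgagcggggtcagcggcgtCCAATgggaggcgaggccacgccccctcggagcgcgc

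*Rrm1* held CCAAT at 91 to 87 and at 45 to 41 bases before its start, and *Rrm2* at 37 to 33 bases before the first annotated base, whereas the *Tyms* stretch held none. Over the 250 bases before the RefSeq start, which for *Rrm2* lies 13 bases further on, searched on both strands, CCAAT was found in 4 of the 8 genes with a listed promoter (*Rrm1*, *Rrm2*, *Dtymk* and *Shmt1*), beside 33.8% of 32851 promoters. The *Dtymk* match lies after the first annotated transcript base, and the windows of *Shmt1* and *Dut* lie wholly inside the annotated gene. The *Dtymk* and *Shmt1* matches are therefore not upstream of every annotated start. None of the 8 held any of the E2F octamers TTTCCCGC, TTTCGCGC, TTTGCCGC and TTTGGCGC, which 1.86% of all promoters held. Other forms of the E2F site were not searched, and beside so low a share the lack is no result about these genes. The cell cycle homology letters TTTGAA or TTCGAA were found before *Dck* only, and in 17.1% of all promoters. These are matches of letters, and binding was not measured.

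On the GRCm38 assembly with the GENCODE M21 annotation, *Tyms* lies at chr5:30058202-30073617 (minus strand), *Shmt1* at chr11:60788104-60811718 (minus), *Tk1* at chr11:117815526-117826092 (minus), *Dtymk* at chr1:93792576-93801934 (minus) and *Dut* at chr2:125247190-125258608 (plus). *Dck* lies at chr5:88764996-88783281 (plus), *Rrm1* at chr7:102441695-102469771 (plus), *Rrm2* at chr12:24708241-24714146 (plus) and *Rrm2b* at chr15:37923952-37961318 (minus). Of their exon bases, 4.74% of *Shmt1*, 1.6% of *Tk1* and 8.04% of *Rrm2b* also belong to a gene on the other strand (*Smcr8*, *Afmid* and the antisense gene *Gm49085*), and reads from these stretches cannot be told apart without strand. The processed pseudogene *Tyms-ps* has no row in the count table.

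Scaled to gene length as RPKM (CPM per kilobase of exon), *Dtymk* and *Dut* were the highest of the genes in untreated cells, at 138 ± 22.2 (SD, n = 3) and 104 ± 7.61 RPKM in LGR5+ cells. *Rrm2* followed at 68.6 ± 14.7 RPKM. *Tk1* at 36.4 ± 1.83 and *Tyms* at 29.6 ± 7.24 RPKM did not differ beyond their spread (their mean ± SD ranges overlapped), and *Rrm1* came next at 16.3 ± 3.48 RPKM. *Dck* at 10.2 ± 2.47 and *Shmt1* at 5.77 ± 0.732 RPKM were lower, and *Rrm2b*, at 0.849 ± 0.0519 RPKM, was the lowest. The order was the same in untreated LGR5- cells, from *Dtymk* at 156 ± 25.8 RPKM down to *Rrm2b* at 0.748 ± 0.197 RPKM. There the spreads were wider, and of the neighbours in this order *Tyms* and *Rrm1* (35.1 ± 7.21 and 14.7 ± 5.79 RPKM) and *Shmt1* and *Rrm2b* were the ones whose ranges did not overlap.

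**Figure D1:**
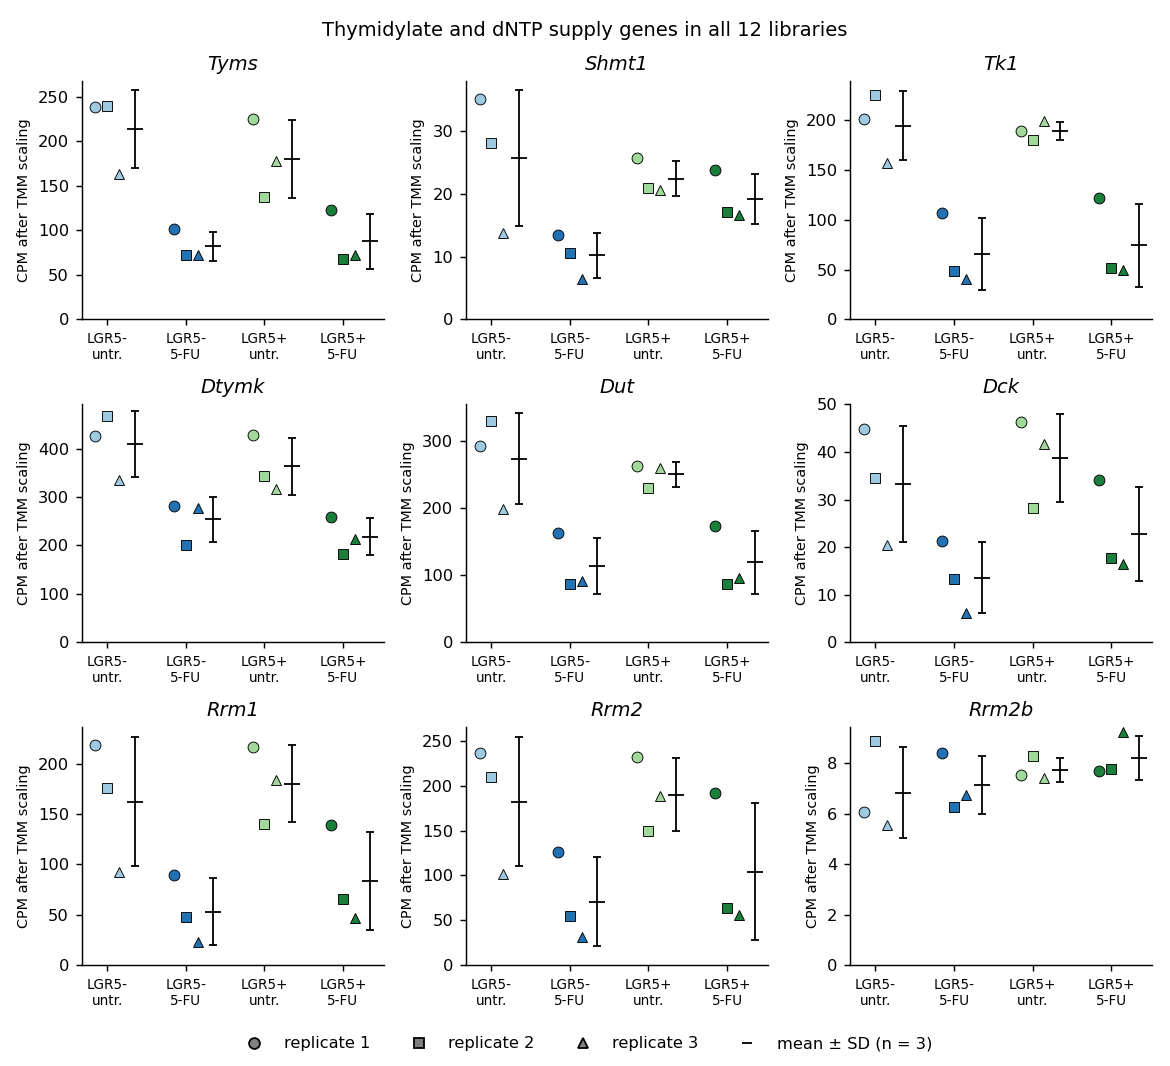
CPM after TMM scaling of each gene (vertical axes, linear from 0) in the 12 libraries, by population and treatment (untr., untreated); symbols mark replicate numbers and the bars the mean ± SD of 3 libraries. In both populations 5-FU-treated libraries of *Tyms*, *Tk1*, *Dtymk*, *Dut* and *Rrm1* lie below all untreated ones, replicate 1 lies highest among treated libraries for most genes, and *Rrm2b* stays between 5.55 and 9.24 CPM.

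The first question was how these genes responded to 5-FU in LGR5+ cells. *Tyms*, *Tk1*, *Dtymk* and *Dut* fell, each to between 39.4% and 60.2% of its untreated mean, while *Shmt1*, *Dck*, *Rrm1*, *Rrm2* and *Rrm2b* did not pass the test (edgeR's quasi-likelihood test, Benjamini-Hochberg adjusted over 16157 genes). The 4 that fell compare with 6.37% of all genes tested that fell and 9.66% that rose at the same threshold, an adjusted *P* under 0.05. None of the 9 rose. These are bulk samples, so fewer cells in S phase and less RNA per cell cannot be told apart, here and for the other genes named.

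*Tyms* was counted at 225, 137 and 178 CPM in untreated LGR5+ replicates 1 to 3 and at 123, 67.9 and 71.9 CPM after 5-FU. All treated libraries were below all untreated ones, and treated replicate 1 was nearest to them. The log2 fold change was -1.04 (SE 0.267, adjusted *P* = 0.0158 by edgeR).

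*Tk1*, the salvage enzyme that works around thymidylate synthase, had the lowest fitted log2 fold change of the 9 in LGR5+ cells. It went from 189, 180 and 199 CPM to 122, 51.1 and 49.7 CPM, without overlap and again with replicate 1 the highest of the treated libraries. The log2 fold change was -1.34 (SE 0.375, adjusted *P* = 0.0244 by edgeR).

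*Dut* lay at 262, 229 and 260 CPM in untreated and at 173, 87.2 and 95.9 CPM in treated LGR5+ libraries, with a log2 fold change of -1.08 (SE 0.299, adjusted *P* = 0.0236). *Dtymk*, which acts on dTMP from either source, was counted at 429, 343 and 317 CPM before and 259, 182 and 214 CPM after 5-FU. Neither gene's groups overlapped. The *Dtymk* log2 fold change of -0.73 (SE 0.217, adjusted *P* = 0.0321) was the smallest in size of the 4 that passed the test.

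*Shmt1* was counted at 25.7, 20.9 and 20.7 CPM in untreated and 23.8, 17.2 and 16.7 CPM in treated LGR5+ libraries. These ranges overlap, and the log2 fold change was -0.22 (SE 0.309, adjusted *P* = 0.684).

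The large subunit gene *Rrm1* was at 216, 140 and 184 CPM in untreated and 139, 65.2 and 47.0 CPM in treated LGR5+ libraries. The groups did not overlap, though treated replicate 1 lay just under untreated replicate 2. Its log2 fold change of -1.10 (SE 0.48) had an adjusted *P* of 0.141. The small subunit gene *Rrm2* was at 232, 150 and 188 CPM and then at 192, 63.4 and 56.4 CPM, so treated replicate 1 lay within the untreated range and the other treated libraries below it, with a log2 fold change of -0.87 (SE 0.54, adjusted *P* = 0.319).

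*Dck*, which phosphorylates deoxycytidine and purine deoxynucleosides, was at 46.2, 28.3 and 41.6 CPM in untreated and 34.2, 17.8 and 16.4 CPM in treated LGR5+ libraries. These groups overlapped through treated replicate 1 (log2 fold change -0.76, SE 0.403, adjusted *P* = 0.228). *Rrm2b* was level, at 7.56, 8.29 and 7.41 CPM against 7.70, 7.76 and 9.24 CPM (log2 fold change 0.09, SE 0.229, adjusted *P* = 0.843).

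Counted without a model, 5 of the 9 genes (*Tyms*, *Tk1*, *Dtymk*, *Dut* and *Rrm1*) had every treated LGR5+ library below every untreated one, beside 20% of all genes tested. For these 5 a two-sided exact permutation test gave *P* = 0.1, the smallest that 3 libraries against 3 allow. The count of 4 genes past the threshold rested on single libraries: it was 0 without untreated LGR5+ replicate 1 or without 5-FU-treated replicate 2 or 3, 2 and 1 when untreated replicates 2 and 3 were left out in turn, and 6 when treated replicate 1 was. In the last case *Rrm1* (log2 fold change -1.68, adjusted *P* = 0.0312) and *Rrm2* (-1.66, adjusted *P* = 0.0356) passed as well. The sign of all 8 negative log2 fold changes held in each of these 6 fits.

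The same question was asked of LGR5- cells. Here *Tyms*, *Shmt1*, *Tk1*, *Dtymk*, *Dut*, *Dck* and *Rrm1* fell, to between 32.7% and 61.9% of their untreated means, and *Rrm2* and *Rrm2b* did not pass the test. The 7 of 9 stand beside 7.11% of all genes tested that fell and 8.3% that rose. LGR5- replicate 3, the library with the high mitochondrial share, was the lowest of its group for *Shmt1*, *Tk1*, *Dck*, *Rrm1* and *Rrm2* in both treatments. The part of the mitochondrial share in these levels was not tested.

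*Tyms* went from 238, 240 and 163 CPM in untreated to 101, 71.8 and 72.7 CPM in treated LGR5- cells, without overlap. Its log2 fold change of -1.38 (SE 0.27) had the smallest adjusted *P* of the 9 genes, 0.00347 by edgeR, and it passed in each of the 6 fits that left out 1 library (adjusted *P* 0.00144 to 0.0211).

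*Tk1* was counted at 201, 226 and 157 CPM in untreated and 107, 48.8 and 40.3 CPM in treated LGR5- libraries (log2 fold change -1.57, SE 0.377, adjusted *P* = 0.0117). *Dut* was at 292, 330 and 198 CPM before and 162, 86.7 and 91.4 CPM after 5-FU (-1.27, SE 0.30, adjusted *P* = 0.0106). In both genes treated replicate 1 was the closest to the untreated libraries without reaching them. *Dtymk*, at 427, 467 and 335 CPM against 282, 201 and 278 CPM, again moved least among the genes that passed (-0.69, SE 0.217, adjusted *P* = 0.0436).

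*Shmt1* was at 35.1, 28.1 and 13.8 CPM in untreated and at 13.5, 10.6 and 6.46 CPM in treated LGR5- libraries. Untreated replicate 3 lay just above the highest treated library, and the log2 fold change was -1.33 (SE 0.317, adjusted *P* = 0.0111). Without both LGR5- replicate 3 libraries it was -1.39 (adjusted *P* = 0.00109).

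*Rrm1* was at 218, 176 and 92.6 CPM in untreated and 89.1, 47.5 and 22.6 CPM in treated LGR5- libraries, with the lowest fitted log2 fold change of the 9, -1.61 (SE 0.487, adjusted *P* = 0.0405). *Rrm2* was at 236, 210 and 101 CPM before and 126, 54.7 and 31.5 CPM after, so that treated replicate 1 lay above untreated replicate 3. Its log2 fold change of -1.36 (SE 0.546) did not pass, with an adjusted *P* of 0.118. Without 5-FU-treated LGR5- replicate 1 it was -2.08 (adjusted *P* = 0.0183).

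*Dck* was at 44.8, 34.6 and 20.5 CPM in untreated and 21.2, 13.3 and 6.16 CPM in treated LGR5- libraries, with treated replicate 1 just above untreated replicate 3, and passed the test narrowly (log2 fold change -1.29, SE 0.411, adjusted *P* = 0.0489). *Rrm2b*, at 6.06, 8.89 and 5.55 CPM against 8.42, 6.26 and 6.75 CPM, had a log2 fold change of 0.06 (SE 0.23, adjusted *P* = 0.891).

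Without overlap between treated and untreated LGR5- libraries were 6 of the 9 genes (*Tyms*, *Shmt1*, *Tk1*, *Dtymk*, *Dut* and *Rrm1*), beside 13.4% of all genes tested. The count of 7 past the threshold became 3 and 4 when untreated LGR5- replicates 1 and 2 were left out in turn, 2 when treated replicate 2 was, and 1, *Tyms*, when treated replicate 3 was. It was 4 without both replicate 3 libraries, where *Rrm1* (-1.53, adjusted *P* = 0.0822) and *Dck* (-1.20, adjusted *P* = 0.0544) no longer passed.

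**Figure D2:**
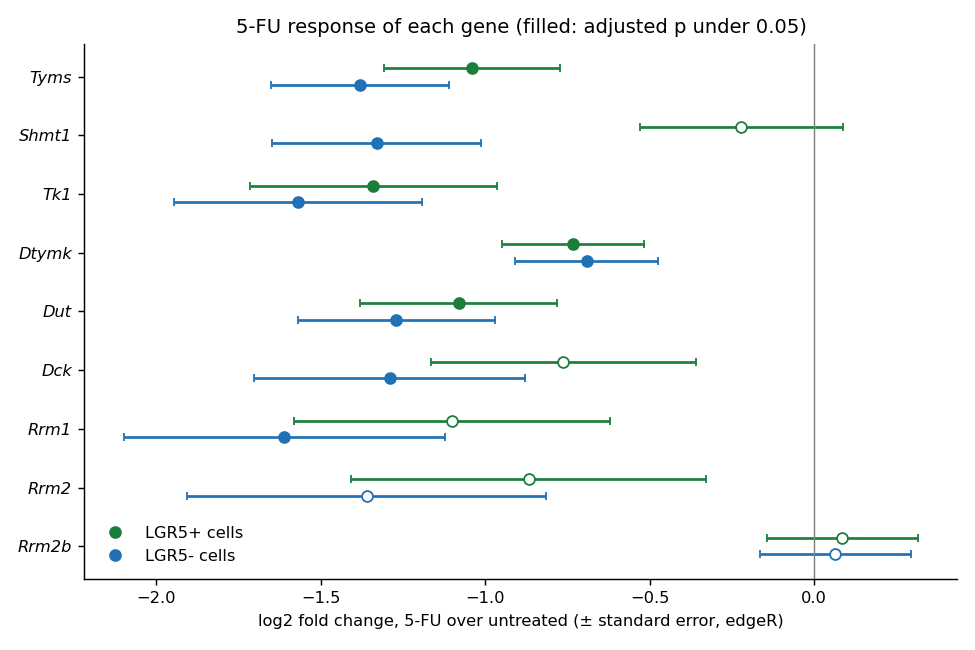
Log2 fold change of 5-FU-treated over untreated cells (horizontal axis) with its standard error for each gene, in LGR5+ (green) and LGR5- cells (blue), 3 libraries a group; filled circles have an adjusted p under 0.05 by edgeR. All genes but *Rrm2b* lie below 0 in both populations, and *Shmt1* shows the widest distance between them.

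*Tyms*, *Tk1*, *Dtymk* and *Dut* were the genes that fell in both populations. Over the 9 genes the median log2 fold change was -0.87 in LGR5+ and -1.33 in LGR5- cells, where all genes tested had medians of -0.02 and -0.05. Whether the responses of the populations differed was tested as an interaction. No gene of the 9 passed, and neither did any of the genes tested (0% by edgeR and 0 genes by DESeq2, with 254 genes at an unadjusted *P* under 0.05 by edgeR). *Shmt1* was the 1 member with an unadjusted *P* under 0.05. Its response was 1.11 higher in LGR5+ than in LGR5- cells on the log2 scale (SE 0.441, adjusted *P* = 1 by edgeR). For the other 8 genes the difference lay between -0.04 (*Dtymk*) and 0.53 (*Dck*).

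The populations were then compared within each treatment. In untreated cells no gene of the 9 passed the test between LGR5+ and LGR5- cells, with log2 fold changes from -0.25 (*Tyms*) to 0.22 (*Dck*), and 0% of all genes tested passed (0 by DESeq2, and 214 at an unadjusted *P* under 0.05 by edgeR). The untreated LGR5+ libraries lay within the LGR5- range for *Shmt1*, at 20.7 to 25.7 against 13.8 to 35.1 CPM, and for *Tk1*, at 180 to 199 against 157 to 226 CPM. The same held for *Dut*, *Rrm1*, *Rrm2* and *Rrm2b*, while *Tyms*, *Dtymk* and *Dck* each had an LGR5+ library outside that range.

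After 5-FU the fit of all libraries again gave 0 of 9 genes and 0% of all genes tested, with 2095 genes at an unadjusted *P* under 0.05 by edgeR and 64 higher and 28 lower past the threshold by DESeq2. *Shmt1* had the smallest *P* of the 9: its 3 treated LGR5+ libraries, at 16.7 to 23.8 CPM, lay above all 3 treated LGR5- libraries, at 6.46 to 13.5 CPM (log2 fold change 0.91, SE 0.316, unadjusted *P* = 0.0115, adjusted *P* = 0.349).

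Among the 5-FU-treated libraries, those of the 2 populations with the same replicate number had deviations that correlated across genes (*r* = 0.571, 0.217 and 0.304). They were therefore also compared as pairs, though the labels name no shared culture. *Shmt1* was 1.77, 1.62 and 2.59 times as high in LGR5+ as in LGR5- cells in pairs 1 to 3. For *Rrm1* the ratios were 1.56, 1.37 and 2.08, for *Dck* 1.61, 1.34 and 2.67, and for *Rrm2* 1.52, 1.16 and 1.79. In each of these genes pair 3, which holds the LGR5- library with 6.44% mitochondrial reads, had the highest ratio. *Tyms*, by contrast, had ratios of 1.22, 0.945 and 0.989, and *Dtymk* was lower in LGR5+ cells in every pair, at 0.918, 0.904 and 0.773.

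Of the 9 genes, 6 (*Shmt1*, *Tk1*, *Dut*, *Dck*, *Rrm1* and *Rrm2*) were higher in LGR5+ cells in all 3 pairs, beside 29.6% of all genes tested. Among them *Tk1* had ratios of only 1.15, 1.05 and 1.23, and *Dut* was nearly even at 1.07, 1.01 and 1.05. A fit of only these 6 libraries with the pair as a block was added after the data were seen. In it 2 genes passed: *Shmt1* (log2 fold change 0.88, SE 0.172, adjusted *P* = 0.0346) and *Rrm1* (0.64, SE 0.145, adjusted *P* = 0.0477), beside 1.41% of 15196 genes. *Dck* (0.74, adjusted *P* = 0.0542) and *Rrm2* (0.48, adjusted *P* = 0.0819) did not, and *Dut* had a slightly negative log2 fold change. The number was 1 (*Shmt1*, 0.97, adjusted *P* = 0.0379) without pair 1, and 4, with *Dck* and *Rrm2* added, without pair 2 and also without pair 3. With the block in a fit of all 12 libraries it was 0, *Shmt1* having an adjusted *P* of 0.174. Higher levels in LGR5+ cells after 5-FU were not particular to these genes. The 27 S phase and proliferation genes described below had a median log2 fold change of 0.325 (-0.353 to 0.818), and 13 purine synthesis genes 0.46. Summed over the S phase list, pairs 1 to 3 had 1656, 968.9 and 719.4 CPM in LGR5- and 2275, 1133 and 1015 CPM in LGR5+ cells.

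**Figure D3:**
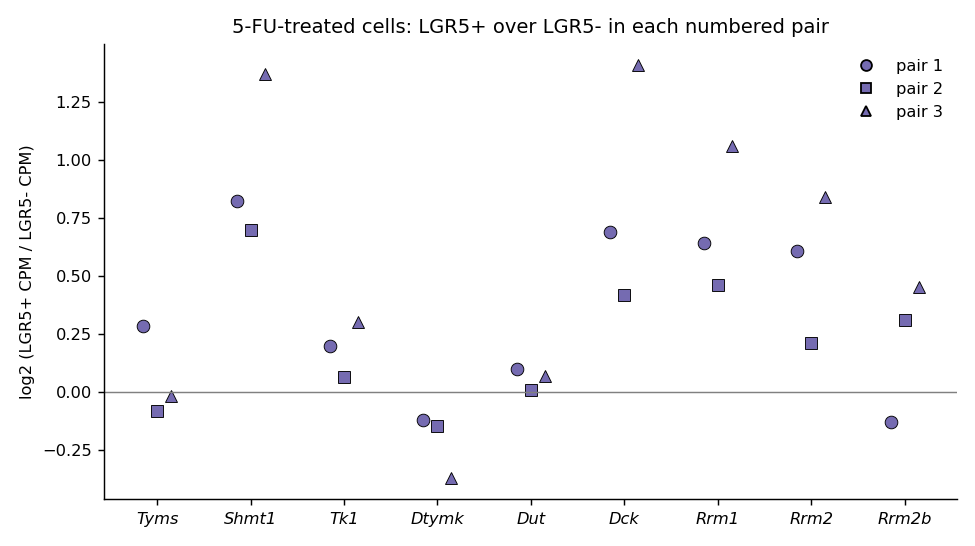
Log2 ratio of CPM in LGR5+ over LGR5- cells (vertical axis) after 5-FU for each gene in each numbered pair of libraries (symbols). *Shmt1*, *Dck*, *Rrm1* and *Rrm2* lie above 0 in every pair with pair 3 the highest, *Tyms*, *Tk1* and *Dut* lie nearer to 0, and *Dtymk* lies below 0 in every pair.

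Because the fitted levels of *Rrm2* were lower after 5-FU and those of *Rrm2b* were not, the makeup of the small subunit transcripts was compared per kilobase of exon. Chosen after these levels were seen, the *Rrm2b* share mostly mirrors the *Rrm2* levels and is no separate test. *Rrm2b* made up 0.773%, 1.27% and 1.64% of the summed *Rrm2* and *Rrm2b* RPKM in untreated LGR5- replicates 1 to 3 and 1.98%, 3.36% and 6.1% after 5-FU. All treated LGR5- libraries were above the untreated ones (two-sided exact permutation *P* = 0.1, the smallest possible). In LGR5+ cells the share was 0.981%, 1.65% and 1.18% in untreated and 1.20%, 3.58% and 4.73% in treated libraries, where treated replicate 1 lay within the untreated range (exact permutation *P* = 0.2).

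*Rrm1* RPKM divided by *Rrm2* RPKM lay between 0.177 and 0.259 over all libraries, with means of 0.238 ± 0.00661 in untreated and 0.217 ± 0.039 in treated LGR5+ cells (SD, n = 3, exact permutation *P* = 0.4). *Tyms* per *Tk1*, the enzymes of the routes to dTMP, was 0.811 ± 0.187 in untreated and 1.08 ± 0.196 in treated LGR5+ cells (exact permutation *P* = 0.2). *Tyms* per *Dtymk* went from 0.224 ± 0.0155 to 0.141 ± 0.024 in LGR5- cells, without overlap (exact permutation *P* = 0.1). The sizes of these ratios, and of the *Rrm2b* share above, depend on the exon lengths used.

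**Figure D4:**
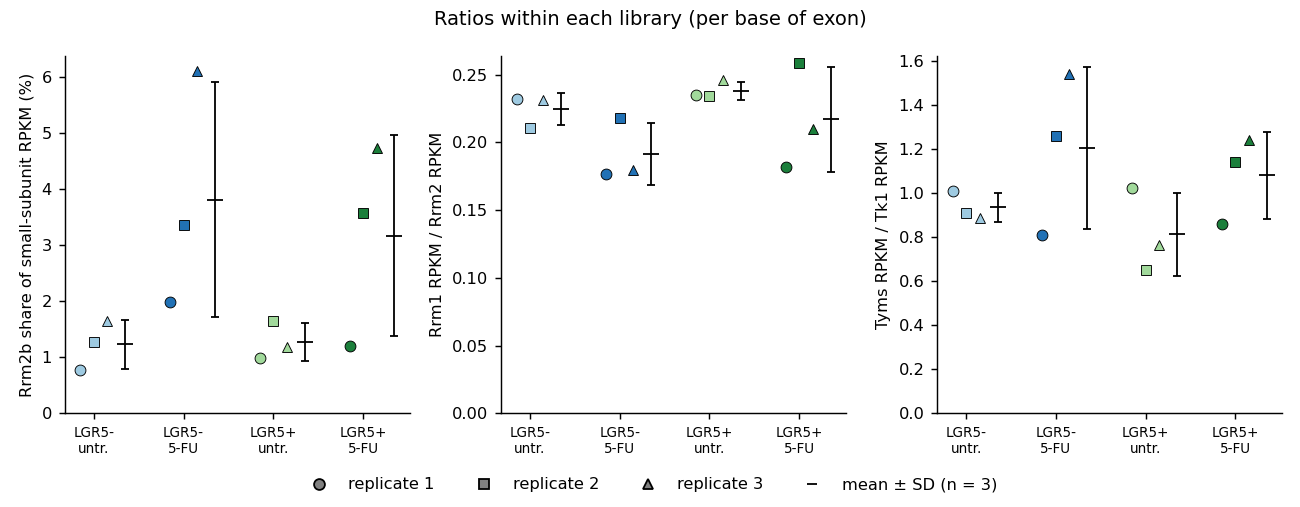
Ratios of RPKM within each library by population and treatment (untr., untreated), with the mean ± SD of 3 libraries: the percent of small subunit RPKM from *Rrm2b* (left), *Rrm1* over *Rrm2* (middle) and *Tyms* over *Tk1* (right), vertical axes from 0. The *Rrm2b* share reaches 6.1% in treated LGR5- replicate 3 and stays at or below 1.65% in untreated libraries, while *Rrm1* over *Rrm2* stays between 0.177 and 0.259.

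Across the 12 libraries, which share the treatment contrast, log2 CPM of *Rrm1* and *Rrm2* had a Pearson *r* of 0.985, *Tk1* and *Dut* 0.986, *Rrm1* and *Dck* 0.984, and *Tyms* and *Dut* 0.974. *Shmt1* ran closest to *Dck* (0.933) and *Dtymk* closest to *Tyms* (0.93). *Rrm2b* had coefficients between -0.115 and 0.231 with the other 8. Among 9098 genes with a mean of at least 10 CPM, the 5 most like *Tyms* were *Tipin* (0.993), *Prim1* (0.99), *Skp2* (0.987), *Gins1* (0.985) and *Cdk2* (0.979). Those most like *Rrm2* were *Mcm4* (0.987), *Rrm1* (0.985), *Mcm3* (0.985), *Rpa2* (0.979) and *Slfn9* (0.977). The 5 most like *Rrm2b* reached lower values, from *Rasal2* at 0.852 through *Med9*, *Vsig2* and *Utp23* to *Cyb561* at 0.759. These coefficients are descriptions of libraries that form treated and untreated groups.

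The folate cycle brings the carbon that thymidylate synthase uses. Of its 17 genes tested besides *Shmt1*, 7 fell and 1 rose in LGR5+ cells, and 8 fell and 1 rose in LGR5- cells, with medians of -0.40 and -0.32. Beside them, 6.37% of all genes tested fell and 9.66% rose in LGR5+ cells, and 7.11% fell and 8.3% rose in LGR5- cells. *Mthfd2*, a mitochondrial enzyme of the cycle, went from 95.0 ± 29.7 to 16.0 ± 2.47 CPM in LGR5+ cells (SD, n = 3; log2 fold change -2.57, adjusted *P* = 4.45e-05) and had a log2 fold change of -2.34 in LGR5- cells (adjusted *P* = 0.00014). *Slc19a1*, the reduced folate carrier, fell in both (-1.23 and -1.40), as did the mitochondrial *Mthfd1l* (-1.83 and -1.80). *Aldh1l2* fell in both (-5.62, adjusted *P* = 0.00019, and -3.75, adjusted *P* = 0.00279). Its treated LGR5+ libraries held only 11, 2 and 5 reads, and the untreated ones spread over 5.83, 33.7 and 11.7 CPM, so the size of its fall is uncertain. *Shmt2*, the mitochondrial counterpart of *Shmt1*, also fell in both (-1.66, adjusted *P* = 0.00172, and -1.76, adjusted *P* = 0.00154). *Ggh*, a hydrolase of folate polyglutamates, was the gene that rose (1.24 and 1.10), and was picked after its values were seen.

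Of 18 genes of nucleotide salvage and clearance, 2 were higher and 3 lower in LGR5+ cells and 1 higher and 3 lower in LGR5- cells. Of all genes tested, 9.66% rose and 6.37% fell in LGR5+ cells and 8.3% rose and 7.11% fell in LGR5- cells, so the higher counts are near those shares. Cytidine deaminase (*Cda*) rose from 11.6 ± 2.17 to 26.6 ± 5.25 CPM in LGR5+ cells (log2 fold change 1.19, adjusted *P* = 0.00256) and also in LGR5- cells (1.24, adjusted *P* = 0.00267). The equilibrative nucleoside transporter *Slc29a1* fell in both (by 1.25 on the log2 scale in LGR5+ cells), and so did the dCTP pyrophosphatase *Dctpp1* (-0.81 and -0.62). *Slc29a2* fell in both (-1.04, adjusted *P* = 0.0415, and -1.64, adjusted *P* = 0.00438), and the nucleotidase *Nt5c* rose in LGR5+ cells (0.61, adjusted *P* = 0.038). *Nme2* shares 48.9% of its exon bases with the read-through gene *Gm20390*, so its count is uncertain.

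Thioredoxins and glutaredoxins pass electrons to ribonucleotide reductase. Of 9 genes of these systems 1 rose and 1 fell in each population, and neither is a known donor to the reductase of the cytosol: *Glrx3*, a glutaredoxin of iron-sulfur handling (1.30 in LGR5+ and 0.99 in LGR5- cells), and the mitochondrial thioredoxin reductase *Txnrd2* (-0.88 and -0.91). In pyrimidine synthesis de novo, 0 of 5 genes passed in LGR5+ cells, and *Umps* fell in LGR5- cells (-1.19, adjusted *P* = 0.0334). In purine synthesis 1 of 13 genes fell in each population, *Pfas* in LGR5+ (-0.87, adjusted *P* = 0.0455) and *Impdh2* in LGR5- cells (-0.81, adjusted *P* = 0.0398). With 0 or 1 gene per list and direction, beside the shares of all genes given above, these counts are no result about the lists.

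The 27 S phase and proliferation genes moved beside the members: 10 fell in LGR5+ and 21 in LGR5- cells, beside 6.37% and 7.11% of all genes tested. None of the 27 rose, and their medians were -1.21 and -1.54. The LGR5+ count was 3 without 5-FU-treated replicate 2 or 3 and 21 without replicate 1, and leaving out untreated LGR5- replicates 1 and 2 in turn gave 12 and 13, and leaving out the treated replicates 2 and 3 gave 9 and 10. *Cdk1*, the mitotic kinase, fell from 500.0 ± 41.6 to 199 ± 96.5 CPM in LGR5+ cells (-1.33, adjusted *P* = 0.0103) and from 462 ± 129 to 143 ± 43.3 CPM in LGR5- cells (-1.69, adjusted *P* = 0.00294). *Top2a* fell in both (-1.82 and -1.84), and *Pcna*, the replication clamp, fell in LGR5- cells (-1.21, adjusted *P* = 0.0164) and had a log2 fold change of -0.73 in LGR5+ cells (adjusted *P* = 0.124). Summed over the list, the level was 3010 to 3750 CPM in untreated and 1010 to 2280 CPM in treated LGR5+ libraries, and 2460 to 3850 CPM and 719 to 1660 CPM in LGR5- libraries. The part of the S phase genes' fall in the members' levels was not tested. *Fen1* of this list shares 78.8% of its exon bases with *Gm10143* on the other strand, so its count is uncertain.

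Of 20 p53 target genes, 17 rose in each population and none fell, with medians of 1.54 in LGR5+ and 1.61 in LGR5- cells. Beside them, 9.66% of all genes tested rose in LGR5+ and 8.3% in LGR5- cells. *Cdkn1a*, the cell cycle inhibitor p21, rose from 1080 ± 227 to 3540 ± 534 CPM in LGR5+ cells (1.72, adjusted *P* = 0.000271), and *Bax* (1.01 and 0.93) and *Phlda3* (1.57 and 1.66) rose in both populations. *Rrm2b*, known as a p53 target but not counted in this list, had log2 fold changes of 0.09 and 0.06 in the same libraries.

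**Figure D5:**
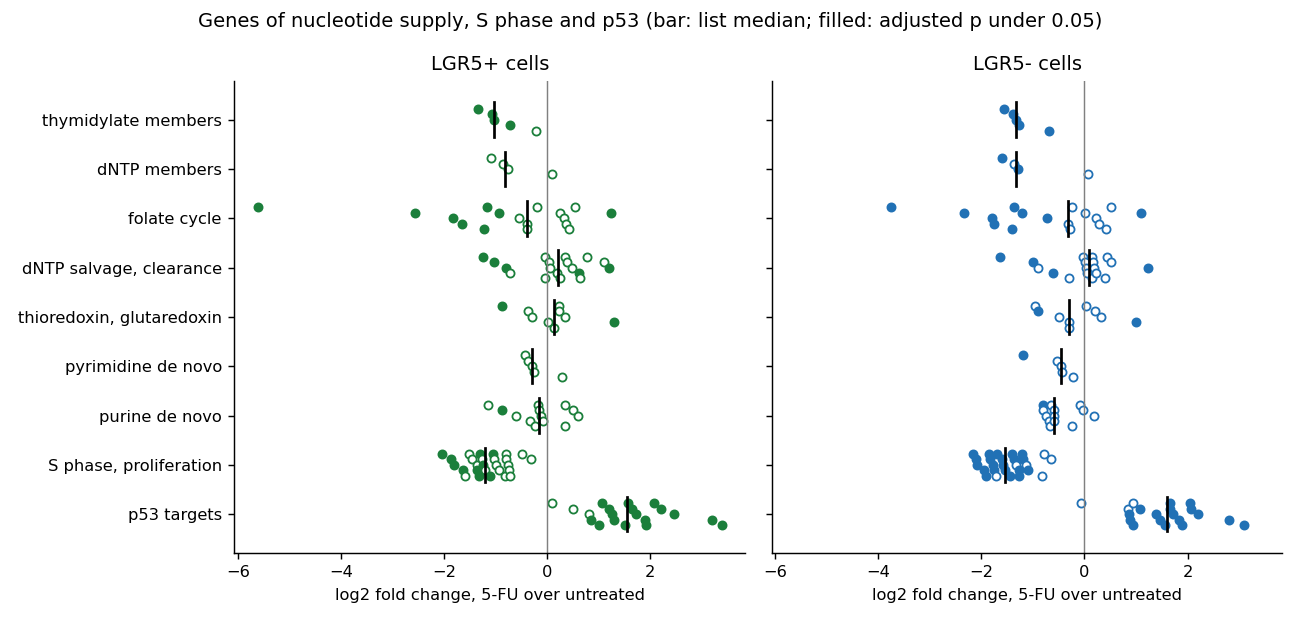
Log2 fold change of 5-FU-treated over untreated cells (horizontal axis) for every gene of each list in LGR5+ (left) and LGR5- cells (right); filled circles have an adjusted p under 0.05 by edgeR, short bars are list medians and vertical spread within a row has no meaning. The 5 thymidylate genes have medians of -1.04 and -1.33 and the S phase genes of -1.21 and -1.54. The thymidylate genes lie in the range of the S phase genes, except *Shmt1* in LGR5+ cells (-0.22 against -2.05 to -0.314). The medians of purine and pyrimidine synthesis lie nearer to 0 and those of the p53 targets above it.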

How the data were processed

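RNA from sorted cells was extracted and amplified by the authors with a SMARTer kit (SMART-Seq v4 per the labels) and sequenced in 12 libraries. The deposited table holds raw counts, whole numbers without normalization, for 47069 Ensembl genes. The submitters' processing notes name HISAT2, HISAT, TopHat2, HTSeq and the build mm8, and the annotation is not given in the sources used here. Positions, symbols (46488 of 47069 identifiers matched) and exon lengths come from GENCODE M21 on GRCm38, so they describe that annotation and not the counting, and RPKM rests on its lengths.

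Groups and replicate numbers were read from the sample titles. With R 4.3.3 and edgeR 4.0.16, counts were filtered by filterByExpr (16157 genes kept), scaled by TMM and fitted by glmQLFit (robust) on 4 group means. Contrasts were tested two-sided by glmQLFTest, and adjusted *P* under 0.05 (Benjamini-Hochberg over all genes tested) counted as passed. The SE is the log2 fold change divided by the square root of F. DESeq2 1.42.0, other filters and scalings, only the libraries compared, a replicate block and each library left out were alternatives, as were the thresholds of the study's methods (a log2 fold change beyond 1.5 in either direction at an unadjusted *P* under 0.05). Exact permutation tests of ratios were two-sided, and 3 against 3 libraries cannot go below 0.1. The edgeR fit was also run on simulated libraries without shared replicate deviations and with fewer changed genes, a simpler setting than these data. That run does not show how the fit behaves on the real libraries. Lists were counted and not tested as sets.

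The members and lists were chosen with earlier results of these data known. Named genes were all 9 members, up to 4 genes per nucleotide list and comparison with the smallest *P* among those that passed, the 3 highest by mean CPM of the S phase and p53 lists, and the 5 most correlated with *Tyms*, *Rrm2* and *Rrm2b* (log2 CPM, prior count 2). Same-numbered LGR5+ and LGR5- libraries after 5-FU deviated together from their group means (*r* = 0.571, 0.217 and 0.304), a pairing read from the data, since the labels name no shared culture. No 2 libraries of a group agreed within sampling noise (chi-square per degree of freedom 15.1 to 124). Limits from counts cover counting error only.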

Additional observations from a re-analysis of the deposited data

How the results depend on the processing

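Limits: 3 libraries a group gave a count of members past the threshold that moved with single libraries, and 18 member log2 fold changes, from 0.02 to 0.55 in size, turned sign under at least 1 setting. The dose and time of 5-FU are not tied to these libraries, levels are relative within a library, and the part of the mitochondrial share of LGR5- replicate 3 in its levels was not tested. The cause of the changes below was not tested.

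For the response to 5-FU in LGR5+ cells, 4 members passed. The number was 3 with no filter and 4 with at least 10 reads in every library, with RLE size factors, with library size only, with only the libraries compared and by DESeq2. It was 0 at the thresholds of the study's methods, 7 without both 5-FU replicate 1 libraries, and 0 to 6 with 1 library left out. For the response in LGR5- cells, 7 passed. The number was 4 with no filter, 3 with only the libraries compared, 6 with RLE size factors or library size only, 7 by DESeq2 and at a minimum of 10 reads per library, 2 at the thresholds of the study's methods, 4 without both replicate 3 libraries, 7 without both 5-FU replicate 1 libraries and 1 to 7 with 1 library left out. Leaving out both replicate 3 or both 5-FU replicate 1 libraries, and the fits of compared libraries with a block, were chosen after seeing the data. With library size only, the median log2 fold change of all genes in LGR5+ cells was -0.10.

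With the replicate number as a block in the fit of all libraries, 7 members passed in LGR5+ and 8 in LGR5- cells, and with only the compared libraries and the block 7 and 7. Deviations of treated and untreated libraries of the same number had *r* of -0.0848, -0.168 and 0.0184 for LGR5+ libraries. For LGR5- libraries these were 0.0546, 0.282 and 0.425, and between untreated LGR5+ and LGR5- libraries 0.481, -0.119 and 0.223. Between the treated populations they were 0.571, 0.217 and 0.304, but replicates 2 and 3 were also positive when crossed (0.0497 and 0.117). These values do not settle which numbers mark a shared culture. Between the treated populations the block gave 0 members in all libraries and 2 in only the libraries compared, with 1, 4 and 4 without pairs 1, 2 and 3. Of all genes, 187, 1157 and 1116 were then higher in LGR5+ cells. No other comparison between populations gained or lost a member's call under the block.

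Of 765 log2 fold changes of members recomputed under the alternatives, 635 kept their sign and their side of the threshold, 51 no longer passed, 26 came to pass and 53 turned sign. None of those that turned passed the test under either setting. With 1 library left out, *Rrm2b* ran from -0.00234 to 0.137 for 5-FU in LGR5+ cells and from -0.0751 to 0.299 in LGR5- cells. For LGR5+ against LGR5- in untreated cells the values ran from -0.495 to 0.0993 for *Shmt1*, -0.172 to 0.0839 for *Tk1*, -0.313 to 0.036 for *Dut*, -0.036 to 0.495 for *Dck*, -0.13 to 0.426 for *Rrm1* and -0.23 to 0.295 for *Rrm2*. For LGR5+ against LGR5- after 5-FU they ran from -0.22 to 0.285 for *Tyms*, -0.368 to 0.746 for *Tk1*, -0.299 to 0.423 for *Dut* and -0.237 to 1.27 for *Rrm2*. For the difference between the responses they ran from -0.33 to 0.784 for *Tk1*, -0.176 to 0.0978 for *Dtymk*, -0.176 to 0.547 for *Dut*, -0.0651 to 1.11 for *Rrm1*, -0.299 to 1.21 for *Rrm2* and -0.212 to 0.162 for *Rrm2b*.

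With library size only, *Rrm2b* was at -0.00554 for 5-FU in LGR5+ cells and -0.108 for the difference between the responses, and *Tyms* and *Dut* at -0.0068 and -0.0408 for LGR5+ against LGR5- after 5-FU. Without both LGR5- replicate 3 libraries, *Rrm2b* was at -0.0278 for 5-FU in LGR5- cells, *Dck*, *Rrm1* and *Rrm2* at -0.036, -0.13 and -0.23 between untreated populations, *Tk1* and *Dut* at -0.0666 and -0.0663 between treated ones, and *Dtymk* at 0.152 for the difference between the responses. Without both 5-FU replicate 1 libraries, *Rrm2b* was at -0.0738 for 5-FU in LGR5- cells and *Tyms* at -0.0404 between treated populations. Between treated populations *Tyms* and *Dut* were at -0.00774 and -0.0114 with only the libraries compared and the pair as a block, and at -0.101 and -0.0132 without pair 1, and *Dut* was at -0.00155 with only the libraries compared and no block. The difference between the responses of *Rrm2b* was -0.0291 with no filter and -0.0145 with at least 10 reads in every library.

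Of the S phase genes, the 10 that fell in LGR5+ cells were 23 with a replicate block, 17 by DESeq2 and 24 without both 5-FU replicate 1 libraries, and the 21 in LGR5- cells were 11 with no filter and 10 without both replicate 3 libraries. In purine synthesis, the 1 gene that fell in LGR5- cells became 8 without both replicate 3 libraries, and the 8 folate genes became 5.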
